A study of Mus musculus with 8 samples.

Results

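Conjugation enzymes attach glutathione, sulfate or a sugar acid to drugs, steroids, bile acids and products of lipid oxidation, which makes them more soluble and easier to export. The group described here holds the genes of the glutathione S-transferases (Gst), the membrane-bound glutathione transferases (Mgst), the cytosolic sulfotransferases (Sult) and the UDP-glycosyltransferases (Ugt). The Gst genes are of the cytosolic alpha, mu, omega, pi, theta and zeta classes and of the mitochondrial and peroxisomal kappa class. Members were taken by gene symbol alone, as every gene on the array whose single symbol matched a numbered Gst, Mgst, Sult or Ugt name. Symbols that do not end in a gene number after the class or family letter, such as Ugt8a and Gstcd, were not matched. The families themselves were chosen with earlier results of these data known. The symbol rule gave 46 of the 18193 genes, on 59 of 45037 probe sets, with 20 Gst, 3 Mgst, 13 Sult and 10 Ugt genes. Where a gene had several probe sets, as 11 members did, the one with the highest mean over the 8 arrays stood for it.

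The study set mouse epithelial cell lines treated to undergo the epithelial-mesenchymal transition (EMT), in which epithelial cells lose their junctions and become fibroblast-like, against the same lines untreated. Stimulated cells had recombinant human TGF-β1 at 3 ng/mL together with EGF at 3 ng/mL for 24 h, and resting cells had the same medium, which held insulin and transferrin, without these factors. Of the 4 lines, mProx (proximal tubule) and MCT come from kidney tubules, and EpH4 and NMuMG from the mammary gland. The labels mark EpH4 as resistant to EMT, and each line gave 1 stimulated and 1 resting array, so that the line is the replicate and the pair. All levels below are quantile-normalized log2 values of the array signal, and a change is the stimulated minus the resting level of 1 line. Signals of different probe sets are not comparable, so levels are compared between arrays within a gene only. A gene is called dim on an array where it lies under 5.27, the level at the 40th percentile of all probe sets, which was also the filter on a gene's mean for testing.

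As background, the cytosolic glutathione transferases work as dimers on electrophiles, and their mu and alpha genes are well-known targets of the oxidant sensor Nrf2. Sulfotransferases take sulfate from the donor PAPS, and UDP-glucuronosyltransferases take glucuronic acid from UDP-glucuronic acid. The kidney proximal tubule, like the liver and the intestine, carries out all 3 reactions. TGF-β1 signals through SMAD proteins and EGF through the ERK pathway.

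The proximal tubule and mammary labels were checked against marker genes. Summed deposited signals of 13 proximal tubule markers were 5697 in stimulated and 15983 in resting mProx, and 1556 in stimulated and 3385 in resting MCT, while those of EpH4 and NMuMG lay between 784 and 988. Of the 13, between 7 and 11 were at or above the filter level on an array. Cdh16, a kidney cadherin, was at 10.04 in stimulated and 12.23 in resting mProx and at 9.48 in stimulated and 10.80 in resting MCT. Slc34a1, a defining phosphate transporter of the mature proximal tubule, was between 5.26 and 5.73 in the kidney lines and between 5.36 and 6.01 in the mammary lines. Cdh1, the epithelial cadherin, was dim in mProx and MCT and between 10.06 and 11.84 in the mammary lines, where the milk protein gene Csn2 was dim on 3 of 4 arrays and at the filter level, to 2 decimals, in resting EpH4. Other markers of the mammary list went against the labels. Csn3, also a milk protein gene, was at 8.89 in stimulated and 5.23 in resting mProx. In MCT Csn3 was at 10.63 stimulated and 9.43 resting, and in the mammary lines between 4.08 and 5.46. Krt19 was between 8.72 and 9.27 in MCT, between 8.52 and 9.11 in NMuMG and dim in EpH4. Summed signals of 12 mammary luminal markers were 17591 in stimulated and 11643 in resting NMuMG, 18785 in stimulated and 19291 in resting EpH4, 4237 in stimulated and 1915 in resting mProx, and 7949 in stimulated and 4716 in resting MCT. The 7 fibroblast markers summed to 500.4 in stimulated and 2148 in resting mProx, and the 6 leukocyte markers to 451.1 in stimulated and 2334 in resting mProx. Decorin (Dcn), at 7.53 in stimulated and 10.56 in resting mProx, and Csf1r, at 7.63 in stimulated and 10.91 in resting mProx, had the largest of these differences. Other markers of the same lists were higher after stimulation in mProx, such as Col1a1 at 6.50 in stimulated and 4.68 in resting cells and Cd68 at 7.05 in stimulated and 6.40 in resting cells, so the sums do not describe the whole lists. In the other 3 lines the fibroblast sums lay between 207.1 and 402.3 and the leukocyte sums between 287.9 and 472.2. Endothelial sums ran from 90.4 to 160.4 in stimulated and from 90.8 to 149.2 in resting arrays, and hepatocyte sums from 103.4 to 203.3 in stimulated and from 132.5 to 231.1 in resting arrays. The part of these markers in the results below was not tested.

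In the 3 lines not marked as resistant, stimulated cells had less transcript of a sulfotransferase, Sult1c2, and of a mu-class glutathione transferase, Gstm1. Sult1c2 was on average 11.4-fold lower and Gstm1 2.37-fold lower in stimulated cells. The glutathione transferase genes Gstm2 and Gsta4 had lower values in all 3 lines too, without passing the test. The omega-class genes Gsto1 and Gsto2 had higher values in every line, also without passing. Values of the mu-class gene Gstm3 were higher in every line by 0.33 or less, without passing. Its deposited signals, before normalization, were lower after stimulation in EpH4, mProx and MCT, so the direction depends on the normalization. None of the 10 Ugt members had a mean level high enough to be tested. The Ugt1a genes, read by probe sets that list 8 symbols each and so not among the members, had signals above the filter level on every array. Fewer cells that carry a transcript and less transcript per cell cannot be told apart in such bulk RNA.

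Of the 46 members, 20 had a mean level at or above the filter and were tested among 12697 genes, namely 14 Gst, 3 Mgst and 3 Sult genes. In limma, with the line as a block and Benjamini-Hochberg adjustment over all genes tested, 2 of the 20 fell and 0 rose at an adjusted p under 0.05 over mProx, MCT and NMuMG. Across all genes 0.063% fell and 0.0394% rose at that threshold. The same 2 members were at least 2-fold lower in each of the 3 lines, as were 0.197% of all genes. At an unadjusted p under 0.05, 6 members were lower (Sult1c2, Gstm1, Gstm2, Gsta4, Gstt1 and Gstp1) and 2 were higher (Gsto1 and Gsto2), against 6.11% of all genes lower and 6.44% higher. The median change of the 20 members over the 3 lines was -0.10, and that of all genes tested was 0.01. With a mean of 5.27, Gstt3 was the member just inside the filter, and Gstk1, at 5.14, the one just outside. Gstt3 passed through its EpH4 arrays alone and was dim on every array of the 3 lines tested here.

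**Figure D1:**
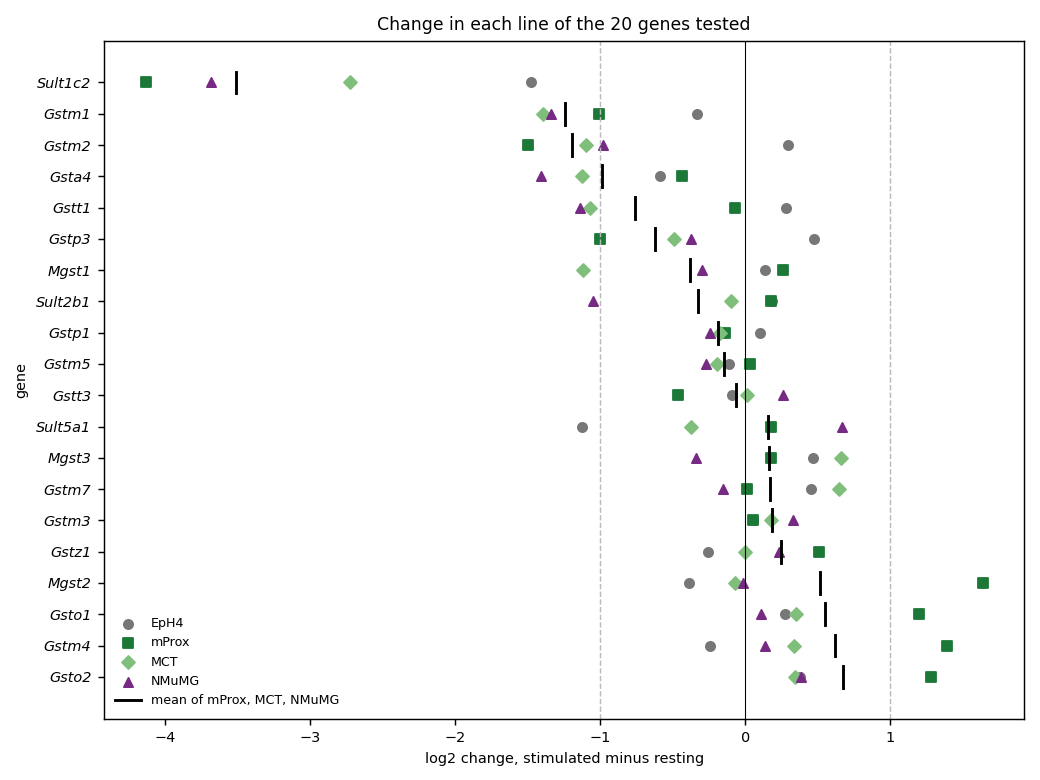
Log2 change (stimulated minus resting, horizontal axis) of each of the 20 members tested (vertical axis), with 1 point per cell line and a black bar at the mean of mProx, MCT and NMuMG. Dashed lines mark a 2-fold difference. Sult1c2 lies at -2.72 to -4.13 in these 3 lines and at -1.48 in EpH4, while most other members lie within 1 log2 unit of 0.

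Sult1c2 encodes a cytosolic sulfotransferase of the phenol-sulfating family. After stimulation its level was 6.83 in mProx, 5.06 in MCT, 7.36 in NMuMG and 3.97 in EpH4, against 10.97 in mProx, 7.78 in MCT, 11.04 in NMuMG and 5.45 in EpH4 at rest. All 4 stimulated arrays lay below their resting partners, and stimulated EpH4 and MCT were dim. The changes were -4.13 in mProx, -2.72 in MCT, -3.69 in NMuMG and -1.48 in EpH4. Over the 3 lines not marked as resistant the mean was -3.51 ± 0.72 (SD, n = 3), with a limma adjusted p of 0.0156. Because stimulated MCT was dim, its value gives only a bound, at least 5.72-fold lower than at rest when the stimulated array is set to the filter level. With MCT at that bound the mean was -3.45 ± 0.84 (SD, n = 3). The call was lost with the offset at the median signal (adjusted p = 0.0605), with no filter (0.104), without the intensity trend (0.158) and with the line left out of the model (1.00), and it held under the other settings, down to 2.1e-28 with no normalization. In that last setting limma took 1 common spread for genes of a like level (25400 degrees of freedom, against 6.96), so that p does not rest on the spread between lines of Sult1c2 itself. Sult1c2 was 17.6-fold lower in mProx and 12.9-fold lower in NMuMG. The proximal tubule marker sum was also lower after stimulation in mProx and in MCT, but its markers did not share a direction. Cdh16 was lower in both lines. Cubn was higher, at 6.29 in stimulated and 5.69 in resting mProx and at 7.26 in stimulated and 6.96 in resting MCT. In the mammary line NMuMG that sum was 783.7 after stimulation and 842.9 at rest. A link between the marker sum and Sult1c2 was not tested.

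Gstm1, of the mu class, conjugates a broad range of electrophiles. Its level after stimulation was 9.53 in mProx, 9.21 in MCT, 9.78 in NMuMG and 8.14 in EpH4, against resting levels of 10.53 in mProx, 10.60 in MCT, 11.12 in NMuMG and 8.47 in EpH4. No Gstm1 array was dim, and the resting level of EpH4 lay below the stimulated levels of the other 3 lines. Its mean change in mProx, MCT and NMuMG was -1.25 ± 0.21 (SD, n = 3), with a limma adjusted p of 0.0353. Without MCT the mean was -1.17 and the adjusted p 0.0537, so that the call was lost with 1 line fewer. It held without mProx (0.0406) and without NMuMG (0.0466). It was also lost under the 4 settings that ended the Sult1c2 call, and over all settings tried the adjusted p ran from 0.000445, with no normalization, to 1.00.

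The array holds 4 probe sets for Gstm1, and all 4 gave lower values after stimulation in each of the 3 lines. The one used here, with a mean level of 9.67, has a suffix (_x_at) that the manufacturer gives to probe sets which may also bind other transcripts, and the mu genes are close in sequence, so its value is uncertain to that extent. The changes of the probe set with a mean level of 9.35, which has no such suffix, were -1.81 in NMuMG, -1.62 in MCT and -1.45 in mProx, a mean of -1.63 ± 0.18 (SD, n = 3). The other probe sets had mean changes of -0.63 and -0.65. With each probe set tested by itself, the limma adjusted p was 0.0466 for the one used and 0.0205 for that at 9.35. For the other probe sets it was 0.352 and 0.401. In EpH4 the 4 probe sets gave changes between -0.34 and 0.32, without a shared direction.

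**Figure D2:**
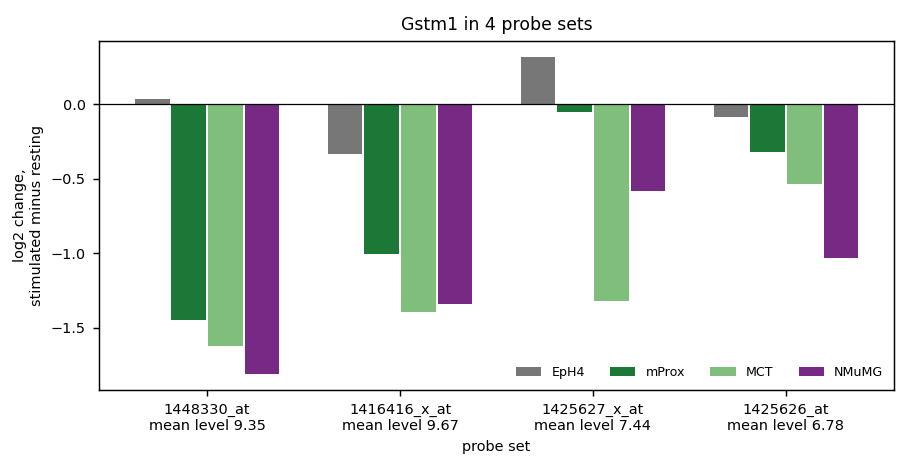
Log2 change of Gstm1 (stimulated minus resting, vertical axis) in each of its 4 probe sets (horizontal axis, with the mean log2 level of each), 1 bar per cell line and 1 array pair per bar. In mProx, MCT and NMuMG all bars are below 0, from -0.05 to -1.81, while the EpH4 bars lie between -0.34 and 0.32.

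Gstm2, another mu-class gene, lies near Gstm1 on chromosome 3. Stimulated cells had 7.80 in mProx, 7.0 in MCT, 7.14 in NMuMG and 5.75 in EpH4, against 9.30 in mProx, 8.10 in MCT, 8.13 in NMuMG and 5.46 in EpH4 in resting cells. Stimulated values were lower in the 3 lines not marked as resistant and higher in EpH4. The mean change in those 3 lines, -1.19 ± 0.27 (SD, n = 3), missed the threshold with a limma adjusted p of 0.0611. Over the settings tried the mean ran from -1.30 to -1.03 and the adjusted p from 0.00577, with no normalization, to 1.00.

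RefSeq promoter windows of assembly GRCm38.p6, from 250 bases before to 50 after the start, are shown for Sult1c2 and Gstm1, the 2 members that fell after exposure to TGF-β1 and EGF together, and for Gstm2. They are printed 5′ to 3′ on the strand of the gene, with the SMAD-binding letters CAGAC, on either strand, in capitals.
Sult1c2, chr17:53845909-53846208, minus strand: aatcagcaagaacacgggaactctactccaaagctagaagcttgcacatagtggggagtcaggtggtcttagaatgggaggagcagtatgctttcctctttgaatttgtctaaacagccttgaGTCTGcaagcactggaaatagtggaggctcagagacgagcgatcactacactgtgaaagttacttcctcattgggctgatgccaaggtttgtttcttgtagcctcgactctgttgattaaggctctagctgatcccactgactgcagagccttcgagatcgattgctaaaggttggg
Gstm1, chr3:108017769-108018068, minus strand: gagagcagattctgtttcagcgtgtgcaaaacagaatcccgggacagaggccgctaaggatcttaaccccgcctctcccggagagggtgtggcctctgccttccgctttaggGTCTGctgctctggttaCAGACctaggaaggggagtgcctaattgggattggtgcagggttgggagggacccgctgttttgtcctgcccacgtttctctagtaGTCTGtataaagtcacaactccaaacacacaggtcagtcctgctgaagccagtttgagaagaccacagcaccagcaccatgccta
Gstm2, chr3:107986371-107986670, minus strand: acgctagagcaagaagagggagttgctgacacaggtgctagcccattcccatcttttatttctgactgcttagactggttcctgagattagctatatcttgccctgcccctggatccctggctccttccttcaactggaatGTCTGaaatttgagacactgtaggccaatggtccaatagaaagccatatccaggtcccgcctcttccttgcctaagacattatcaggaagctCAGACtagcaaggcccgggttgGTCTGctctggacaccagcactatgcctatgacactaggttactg
The Gstm1 window is the one of 2 overlapping windows that lies further downstream. CAGAC occurred 1 time in the Sult1c2 window and 3 times each in those of Gstm1 and Gstm2, and 49.59% of all 32851 promoter windows hold it at least once. The core of the antioxidant response element, TGANNNNGC, occurred 1 time in the Sult1c2 window and was not found in the Gstm1 and Gstm2 windows, and 41.34% of all windows hold it. The AP-1 site TGANTCA, which begins with the same 3 letters and can share a place with that core, was in none of the 3 windows and in 7.808% of all. GCGTG, the core bound by the aryl hydrocarbon receptor, was in the Gstm1 window only of these 3 and in 32.39% of all. Over the 53 windows of the 41 members that matched, 28 held CAGAC, 22 held TGANNNNGC, 11 held TGANTCA and 11 held GCGTG, with both strands searched. Gsta4, Gstt2, Sult2a2, Sult4a1 and Ugt3a2 were not matched. These matches describe letters in a window and do not show binding.

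The other 4 tested mu-class genes had mean changes between -0.14 and 0.62 over the 3 lines. Gstm5 had changes between -0.27 and 0.03 in the 4 lines and Gstm3 between 0.05 and 0.33. A second Gstm3 probe set was dim on every array. For Gstm7, levels after stimulation were 6.63 in mProx, 7.52 in MCT, 7.33 in NMuMG and 7.42 in EpH4, against 6.62 in mProx, 6.87 in MCT, 7.48 in NMuMG and 6.97 in EpH4 at rest. Its changes had no shared direction, and the mean over 3 lines was 0.17 ± 0.42 (SD, n = 3). A second Gstm7 probe set, with a mean level of 5.92, had the opposite sign in MCT and NMuMG. The changes of that probe set were 0.30 in mProx, -0.52 in MCT, 0.54 in NMuMG and 0.39 in EpH4. Gstm4 had a change of 1.39 in mProx, where the resting array was dim, and of -0.25 to 0.34 in the other lines. Gstm6 was dim on all 8 arrays, with a highest level of 4.68.

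Gsta4, the alpha-class enzyme that conjugates 4-hydroxynonenal from oxidised lipids, was at 6.21 in mProx, 9.59 in MCT, 8.58 in NMuMG and 10.85 in EpH4 after stimulation, against 6.65 in mProx, 10.71 in MCT, 9.98 in NMuMG and 11.43 in EpH4 at rest. Each stimulated array was below its resting partner, also in EpH4. The mean change over mProx, MCT and NMuMG was -0.99 ± 0.50 (SD, n = 3; limma adjusted p = 0.143), and over all 4 lines -0.89 ± 0.46 (SD, n = 4; limma adjusted p = 0.135). Gsta2 and Gsta3 did not pass the filter and were at 6.06 or below on every array.

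Omega-class enzymes reduce dehydroascorbate and methylated arsenic compounds. Gsto1 was at 11.58 in mProx, 12.82 in MCT, 12.55 in NMuMG and 12.61 in EpH4 after stimulation, against 10.38 in mProx, 12.47 in MCT, 12.44 in NMuMG and 12.33 in EpH4 at rest. Gsto2 was at 5.81 in mProx, 7.91 in MCT, 5.81 in NMuMG and 7.99 in EpH4 after stimulation, against 4.53 in mProx, 7.56 in MCT, 5.43 in NMuMG and 7.61 in EpH4 at rest. Both genes were higher in 4 of 4 lines after stimulation and by most in mProx, the line with the lowest resting level of each. Averaged over the 3 lines, changes were 0.55 ± 0.57 for Gsto1 and 0.67 ± 0.53 for Gsto2 (SD, n = 3 each), with limma adjusted p values of 0.320 and 0.383. Resting mProx was dim for Gsto2, which leaves a bound of at least 1.46-fold higher after stimulation there.

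Gstp1, the pi-class enzyme, was between 11.96 and 12.66 on all 8 arrays and differed by -0.19 ± 0.05 over the 3 lines (SD, n = 3; limma adjusted p = 0.355). Gstp3 had changes between -1.0 in mProx and 0.47 in EpH4, and in each of these lines 1 of the 2 arrays was dim. Gstz1, which isomerises maleylacetoacetate in tyrosine breakdown, had changes between -0.26 and 0.51.

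Theta-class enzymes act on small halogenated compounds. For Gstt1 the levels were 3.90 in mProx, 6.82 in MCT, 4.97 in NMuMG and 6.63 in EpH4 after stimulation, against 3.97 in mProx, 7.89 in MCT, 6.11 in NMuMG and 6.35 in EpH4 at rest. Stimulated MCT was lower by 1.07 and EpH4 higher by 0.28, while both mProx arrays were dim. Stimulated NMuMG was dim too, so its value is bounded at 1.79-fold or more below the resting one. The mean over 3 lines was -0.76 ± 0.60 (SD, n = 3; limma adjusted p = 0.384). Gstt3 was at 8.59 in stimulated and 8.68 in resting EpH4. In the other lines its stimulated levels were 3.99 in NMuMG, 3.74 in MCT and 4.62 in mProx, against 3.73 in NMuMG, 3.73 in MCT and 5.09 in mProx at rest, all dim. Its EpH4 arrays were thus the only ones above the filter level. Gstt2 and Gstt4 did not pass the filter.

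Gstk1, the mitochondrial and peroxisomal kappa-class enzyme, did not pass the filter either. Its levels were 5.48 in mProx, 5.11 in MCT, 4.87 in NMuMG and 5.68 in EpH4 after stimulation, against 4.85 in mProx, 5.67 in MCT, 4.30 in NMuMG and 5.14 in EpH4 at rest. The stimulated array was higher in 3 lines and lower in MCT, with every value close to or under the filter level.

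Among the membrane-bound glutathione transferases, Mgst1 differed most between lines. Mgst1, an enzyme of the endoplasmic reticulum and outer mitochondrial membrane with peroxidase activity, was at 4.99 in mProx, 7.12 in MCT, 11.85 in NMuMG and 11.58 in EpH4 after stimulation, against 4.73 in mProx, 8.24 in MCT, 12.14 in NMuMG and 11.44 in EpH4 at rest. Both mammary lines lay above both kidney lines, and mProx was dim on both arrays. Mgst3 was at 9.23 in mProx, 9.38 in MCT, 10.18 in NMuMG and 10.28 in EpH4 after stimulation, against 9.06 in mProx, 8.72 in MCT, 10.51 in NMuMG and 9.81 in EpH4 at rest. Mgst2, which can make leukotriene C4, was at 7.11 in mProx, 8.30 in MCT, 7.70 in NMuMG and 7.31 in EpH4 after stimulation, against 5.47 in mProx, 8.37 in MCT, 7.72 in NMuMG and 7.69 in EpH4 at rest. Its value was 3.11-fold higher after stimulation in mProx alone, and the other 3 lines had changes of -0.38 to -0.02. Over mProx, MCT and NMuMG the mean changes were -0.38 ± 0.69 for Mgst1, 0.52 ± 0.97 for Mgst2 and 0.17 ± 0.50 for Mgst3 (SD, n = 3 each). The smallest limma adjusted p of the 3 genes was 0.592.

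**Figure D3:**
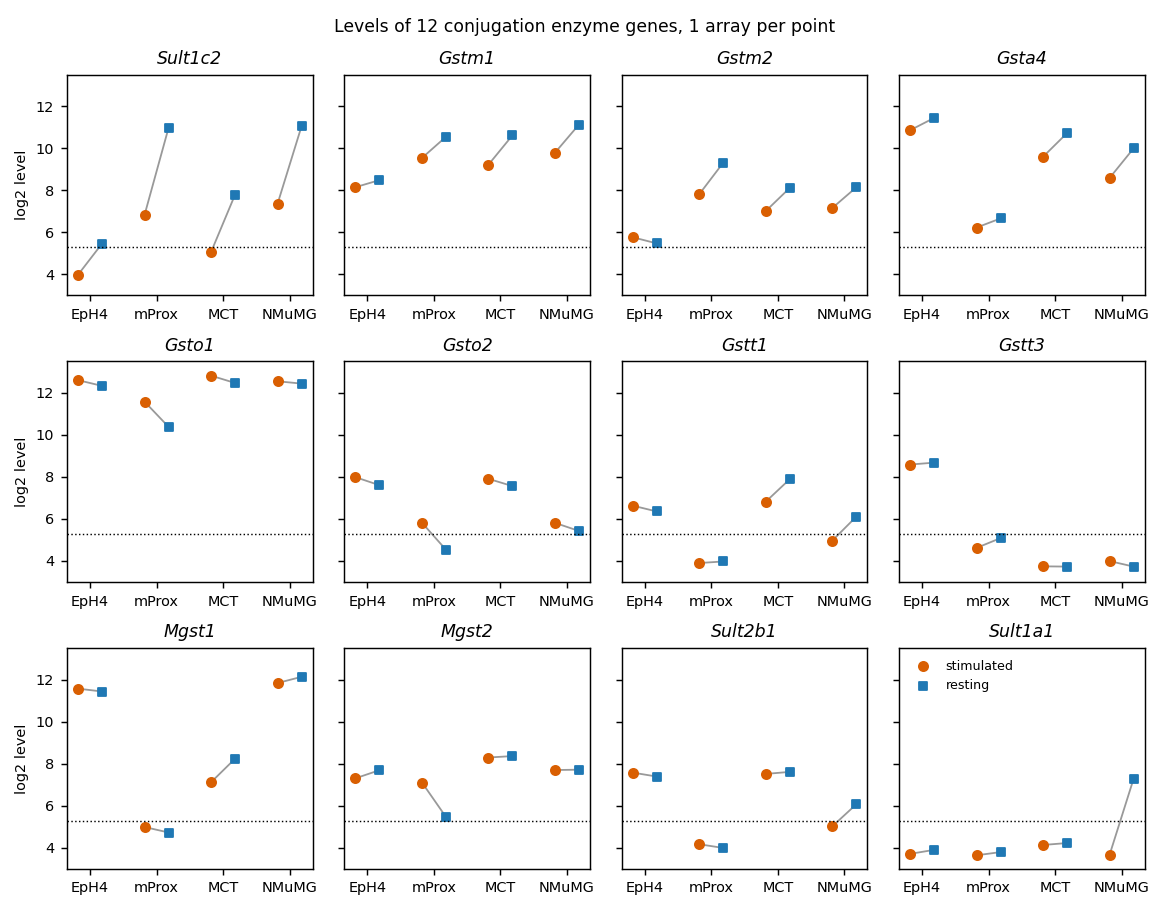
Quantile-normalized log2 levels of 12 members in the 4 cell lines, with 1 array per point, stimulated (orange circles) left of resting (blue squares) and a line joining each pair; the dotted line is the filter level of 5.27. Sult1c2 and Gsta4 are lower after stimulation in all 4 lines, Gsto1 and Gsto2 are higher in all 4, and Sult1a1 is above the dotted line on the resting NMuMG array alone.

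Among the sulfotransferases other than Sult1c2, Sult2b1 and Sult5a1 were the only ones to pass the filter. Sult2b1, which sulfates cholesterol and hydroxysteroids, was at 4.17 in mProx, 7.52 in MCT, 5.02 in NMuMG and 7.58 in EpH4 after stimulation, against 3.99 in mProx, 7.61 in MCT, 6.07 in NMuMG and 7.39 in EpH4 at rest. Stimulated NMuMG was dim and is bounded at 1.75-fold or more below its resting level. MCT and EpH4 differed by 0.19 or less, and both mProx arrays were dim, so that no difference can be read there. Sult5a1 was at 6.46 in mProx, 6.25 in MCT, 6.89 in NMuMG and 5.34 in EpH4 after stimulation, against 6.29 in mProx, 6.62 in MCT, 6.22 in NMuMG and 6.47 in EpH4 at rest. EpH4 was the line with the largest difference, at -1.13. The mean changes over the 3 other lines were -0.32 ± 0.64 for Sult2b1 and 0.16 ± 0.52 for Sult5a1 (SD, n = 3 each), with limma adjusted p values of 0.721 and 0.852.

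Sult1a1, the main phenol sulfotransferase, was above the filter level on 1 array and was not tested. Stimulated arrays were at 3.64 in mProx, 4.13 in MCT, 3.67 in NMuMG and 3.71 in EpH4, against 3.79 in mProx, 4.22 in MCT, 7.28 in NMuMG and 3.90 in EpH4 at rest. In NMuMG the stimulated level was at least 4.05-fold lower than the resting one, counted against the filter level, and there is no replicate of this pair. Sult6b1 was at 4.88 in mProx, 4.30 in MCT, 4.42 in NMuMG and 5.60 in EpH4 after stimulation, against 5.17 in mProx, 4.69 in MCT, 4.61 in NMuMG and 4.86 in EpH4 at rest, so that only stimulated EpH4 was above the filter level. Of the 10 Sult genes that did not pass, 7 were dim on all 8 arrays and had levels of 4.70 or below. They include the estrogen sulfotransferase gene Sult1e1 and the catecholamine sulfotransferase gene Sult1d1.

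All 10 Ugt members, 8 of family 2 and 2 of family 3, had means under the filter. On 5 of them no array reached the filter level, and the highest level of any was 5.85, for Ugt3a2 in resting MCT. Ugt3a1 was at 5.44 in mProx, 4.31 in MCT, 5.10 in NMuMG and 5.24 in EpH4 after stimulation, against 3.96 in mProx, 5.24 in MCT, 4.69 in NMuMG and 4.10 in EpH4 at rest. Only stimulated mProx exceeded the filter level, so its differences are not read as a response. At these signals a difference between conditions was not detectable for these 10 genes. This does not extend to the Ugt1a genes, whose 3 shared probe sets lay between 5.64 and 12.60 over the 8 arrays.

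**Figure D4:**
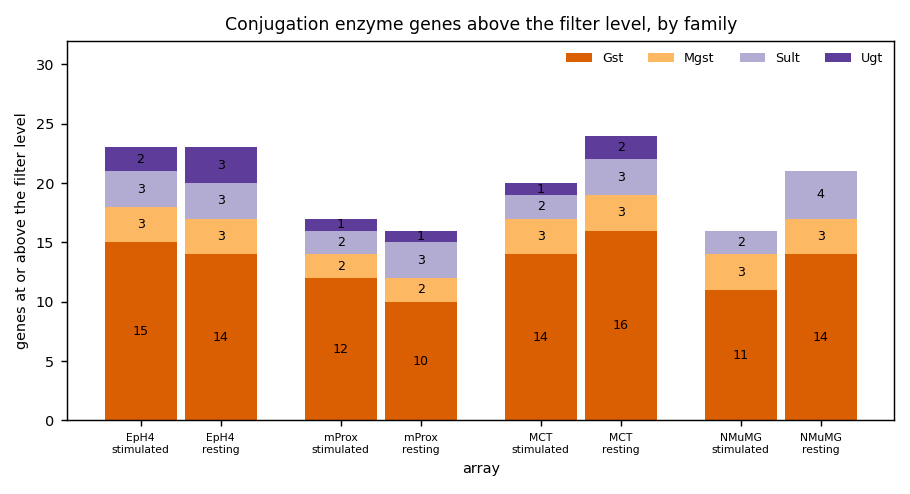
Number of the 46 members at or above the filter level on each array (vertical axis), stacked by family, with the stimulated array left of the resting one in each line. The totals are 23 in stimulated and 23 in resting EpH4, 17 in stimulated and 16 in resting mProx, 20 in stimulated and 24 in resting MCT, and 16 in stimulated and 21 in resting NMuMG. None of the 10 Ugt members reached the level in NMuMG, and the Ugt1a probe sets with several symbols are not counted.

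Line by line, with 1 array per condition and no replicate check, the share of the 20 tested members that was at least 2-fold lower after stimulation was 25% in NMuMG, 30% in MCT and 20% in mProx, and 10% in EpH4. These are 4 genes in mProx, 6 in MCT, 5 in NMuMG and 2 in EpH4. Among all genes tested the shares were 2.46% in mProx, 2.72% in MCT, 1.99% in NMuMG and 1.03% in EpH4. In MCT they were Sult1c2, Gstm1, Gsta4, Mgst1, Gstm2 and Gstt1, and in NMuMG Sult1c2, Gsta4, Gstm1, Gstt1 and Sult2b1. In mProx they were Sult1c2, Gstm2, Gstm1 and Gstp3, and in EpH4 Sult1c2 and Sult5a1. Values were at least 2-fold higher for 4 members in mProx (Mgst2, Gstm4, Gsto2 and Gsto1) and for none in the other lines, against 2.79% of all genes in mProx, 2.76% in MCT, 3.02% in NMuMG and 1.3% in EpH4. Some of these values rest on a dim array. With dim arrays set to the filter level, the members at least 2-fold lower were 3 in mProx (15%), 6 in MCT (30%), 3 in NMuMG (15%) and 1 in EpH4 (5%), against 1.84% of all genes in mProx, 1.89% in MCT, 1.39% in NMuMG and 0.362% in EpH4. Gstp3 in mProx, Gstt1 and Sult2b1 in NMuMG and Sult1c2 in EpH4 were then no longer among them. Of the members higher in mProx, Gsto1 and Mgst2 stayed at least 2-fold higher, and there were none in the other lines, against 1.85% of all genes in mProx, 2.13% in MCT, 1.98% in NMuMG and 0.685% in EpH4. In mProx Gstm4 and Gsto2 were bounded at 1.24-fold and 1.46-fold. The 4 genes higher in mProx come from a line in which the proximal tubule, fibroblast and leukocyte marker sums also differed between the arrays. A link between these sums and the 4 genes was not tested.

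The median changes of the tested members were 0.04 in mProx, -0.14 in MCT, -0.26 in NMuMG and 0.08 in EpH4, and those of all genes were between -0.02 and 0.04. By family, the 14 tested Gst genes had medians of -0.20 in NMuMG, -0.09 in MCT and -0.03 in mProx, with 8 of them lower in NMuMG, 7 in MCT and 7 in mProx. Of the 3 tested Mgst genes none was lower in mProx, 2 were in MCT and 3 in NMuMG.

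The response over all 4 lines, EpH4 included, gave no member past the threshold in limma, and no gene of the array did (0% of all genes). At an unadjusted p under 0.05 there were 6 members, Gsta4, Gstm1, Gstm2 and Sult1c2 lower and Gsto1 and Gsto2 higher, against 11.5% of all genes. Sult1c2 had the smallest adjusted p, 0.0676, at a mean change of -3.01 ± 1.18 (SD, n = 4) that was negative in 4 of 4 lines. Gstm1 averaged -1.02 ± 0.49 (SD, n = 4) with an adjusted p of 0.122.

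Whether the marked-resistant line responded differently was tested as the EpH4 change minus the mean change of the other 3 lines. No member passed in limma (0% of all genes did), and 4 had an unadjusted p under 0.05, against 3.43% of all genes. The differences were 2.04 ± 0.56 for Sult1c2, 1.49 ± 0.38 for Gstm2 and 0.91 ± 0.27 for Gstm1 (SE), all above 0 because the change in EpH4 was less negative or, for Gstm2, positive, and -1.28 ± 0.54 (SE) for Sult5a1. The limma adjusted p was 1.00 for each. EpH4 is 1 line, assumed to vary like the others in this test, and its resting Sult1c2 level of 5.45 was itself close to the filter level, so its change of -1.48 is bounded at -0.19 or lower.

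The kidney and mammary lines were compared in the same way. The response of the 2 kidney lines minus that of the 2 mammary lines had no member past the threshold and none at an unadjusted p under 0.05, while 0% and 5.94% of all genes met these limits. At rest, kidney minus mammary lines also gave no member past the threshold (0% of all genes), and 2 with an unadjusted p under 0.05, against 7.38% of all genes. These were Mgst1, with a mean resting level of 6.48 in kidney and 11.79 in mammary lines, a difference of -5.31 ± 1.19 (SE; limma adjusted p = 0.432), and Mgst3, with a difference of -1.27 ± 0.42 (SE; limma adjusted p = 0.596). Each of the 2 kidney lines was below each of the 2 mammary lines for both genes.

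Other genes of related metabolism, transport and regulation, not all of which supply these enzymes, were followed in lists chosen by function. None of the 105 genes tested in these lists passed the threshold of limma in the 3 lines, and at an unadjusted p under 0.05 13 were lower (12.4%) and 9 higher (8.57%), against 6.11% and 6.44% of all genes. For glutathione synthesis and recycling 19 genes were tested, 10 with a mean change below 0 and 9 above, with a median of -0.04. Gclc, the catalytic subunit of the rate-limiting enzyme of glutathione synthesis, was at 9.69 in NMuMG, 9.04 in MCT and 10.05 in mProx after stimulation, against 11.34 in NMuMG, 9.69 in MCT and 10.16 in mProx at rest. Its mean change was -0.80 ± 0.78 (SD, n = 3; limma adjusted p = 0.307). Gpx4, which reduces lipid hydroperoxides, differed by -0.32 ± 0.13 (SD, n = 3; limma adjusted p = 0.212), Oplah, which opens oxoproline, by -0.58 ± 0.10 and Gpx8 by 0.21 ± 0.12.

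For the sulfate donor and sulfate transport 10 genes were tested, 9 of them with a mean change below 0 and a median of -0.19, against 0.01 over all genes. The sulfate transporter gene Slc26a11 had the largest difference, at -1.06 in NMuMG, -1.52 in MCT and -0.36 in mProx (mean -0.98 ± 0.59, SD, n = 3; limma adjusted p = 0.230), with stimulated MCT dim. The transporters that carry PAPS into the Golgi differed by -0.45 ± 0.21 for Slc35b3 and -0.31 ± 0.34 for Slc35b2 (SD, n = 3 each). Slc26a6 differed by -0.24 ± 0.11. The PAPS synthase genes had mean changes of 0.03 for Papss1 and -0.17 for Papss2, with no shared direction over the lines. Of 8 genes tested in the list for glucuronide donor synthesis and transport, 6 had a mean above 0. Ugdh, which makes UDP-glucuronic acid, was 0.22 ± 0.13 higher (SD, n = 3; limma adjusted p = 0.397). Ugp2, Slc35a3 and Pgm2 differed by -0.33, -0.20 and 0.20.

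Enzymes that remove sulfate or glucuronic acid gave 7 of 10 means below 0 and a median of -0.21. The lysosomal sulfatase genes Ids, Sgsh and Arsb differed by -0.39 ± 0.14, -0.44 ± 0.16 and -0.33 ± 0.23 and the glucuronidase gene Gusb by 0.22 ± 0.13 (SD, n = 3 each). Their limma adjusted p values ran from 0.217 to 0.519. Among 8 exporter genes 6 had means above 0. Abcc1, an exporter of glutathione conjugates, was higher in 3 of 3 lines by 0.36 ± 0.02 (SD, n = 3; limma adjusted p = 0.251). Abcc3, an exporter of glucuronides, was at 4.18, a dim level, in stimulated and 6.89 in resting MCT, while in mProx and NMuMG it differed by -0.15 and -0.34. Abcc5 and Rala differed by -0.29 and 0.25.

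Among other proteins of glutathione or eicosanoid metabolism 11 were tested, and Ptgs2, the inducible cyclooxygenase, had the largest difference. Its level was 10.38 in NMuMG, 8.24 in MCT and 6.45 in mProx after stimulation, against 8.96 in NMuMG, 6.90 in MCT and 5.16 in mProx at rest, the last of these dim. The mean of 1.36 ± 0.06 (SD, n = 3) missed the threshold with a limma adjusted p of 0.0552. Clic1, Clic4 and Faah differed by 0.20, 0.21 and -0.38. Of 15 sensors and their partners, the bile acid receptor gene Nr1h4 was at 4.10 in NMuMG, 5.65 in MCT and 6.17 in mProx after stimulation, against 6.20 in NMuMG, 7.21 in MCT and 7.59 in mProx at rest. Its mean change was -1.69 ± 0.36 (SD, n = 3; limma adjusted p = 0.0610). Stimulated NMuMG was dim, and with that array at the filter level the mean was -1.31 ± 0.33 (SD, n = 3). Maff differed by 0.71, Nfe2l2, which encodes Nrf2, by -0.25 and Arnt by -0.24. Of 24 oxidising and reducing enzymes 13 had means below 0, among them Cyp1b1 at -0.79 ± 0.50, Cyp4b1 at -1.19 ± 0.98 and Cbr3, dim in stimulated NMuMG, at -0.59 ± 0.22, while Akr1c13 was at 0.52 ± 0.42 (SD, n = 3 each). The limma adjusted p of these 4 genes lay between 0.186 and 0.322.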

How the data were processed

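The authors deposited 1 intensity per probe set and array on a linear scale for 45101 probe sets, made with MAS5 per the submitters' processing notes. Neither the MAS5 version and scaling nor any batch is stated there or in the labels. Median signals ran from 41.5 to 59.7, and the number of arrays limits the precision.

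After removal of 64 control probe sets, 10.6 (the 25th percentile of positive signals) was added as an offset, and log2 values were quantile-normalized over the 8 arrays with limma 3.58.1 in R 4.3.3. The offset understates changes of dim genes. Symbols came from the platform annotation, where 34945 probe sets have 1 symbol, 932 several and 9160 none, and 18032 of 18193 genes and all 46 members matched RefSeq by Entrez identifier.

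Each response was tested with limma (lmFit, eBayes with an intensity trend) with the line as a block, Benjamini-Hochberg adjustment over all 12697 genes tested and a threshold of 0.05. Arrays were paired by the cell line in their titles, and those of a line deviated together from their group means (r = 0.905, 0.827, 0.812 and 0.874 across genes). The number of cultures per array is not stated in the labels, and the p-values cover no more than the spread between cell lines.

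Values on every array are given for members past the threshold, members at least 2-fold changed the same way in mProx, MCT and NMuMG, the 2 largest rises and falls per line, and the 3 of each family with the widest range between lines, 17 in all, and for Gsto1. From each list of other genes the 4 with the largest moderated t are named, with some others chosen after their values were seen. The members and lists were chosen with earlier results of these data known. Other scalings, offsets, filters, probe sets and models, and leaving out each line, were tried as alternatives. Where 1 of a line's 2 arrays was dim, a bound was taken with that array at the filter level, and counts by fold in each line with dim arrays at that level were added after the data were seen.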

Additional observations from a re-analysis of the deposited data

Results flagged for a closer look

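Among 24 members (those tested and others described by array), 72 sets of 4 values were examined for a line far from the other 3, and 8 were marked, 11.1%. Chance marks about 1 set in 20, and sets of dim values are among them. The members not tested, Sult1a1, Gstk1, Sult6b1 and Ugt3a1, were described because their change in 1 line was among the largest. Marks on such members follow in part from that choice, so the share marked cannot be compared with chance.

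Sult1a1 was marked in 3 ways, by its change of -3.61 in NMuMG against -0.19 to -0.09 in the other lines, by its resting level of 7.28 in NMuMG against 3.79 to 4.22, and by its stimulated level of 4.13 in MCT against 3.64 to 3.71, all of these last dim. In mProx the change of Gsto2 was 1.28, against 0.35 to 0.39 in the other lines, and the resting level of Gsto1 was 10.38, against 12.33 to 12.47. Stimulated EpH4 had a Gstm4 level of 6.98, against 5.54 to 5.74 elsewhere. The change of Gstk1 was -0.56 in MCT, against 0.53 to 0.63. Sult6b1 differed by 0.74 in EpH4, against -0.39 to -0.20. Each value rests on 1 array or 1 pair of arrays.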

How the results depend on the processing

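Of 20 tested members, 2 passed in mProx, MCT and NMuMG together. The count was 4 with the deposited values not normalized (Gsta4, Gstm1, Gstm2 and Sult1c2), 3 with arrays scaled to the same trimmed mean (with Gstm2 at an adjusted p of 0.0484), 0 with the offset at the median signal, 0 with no filter, 0 without the intensity trend and 0 with no replicate block, and 1 to 2 when a line was left out (1, Sult1c2, without MCT). Over all 4 lines, where none passed, it was 4 with the values not normalized, 1 (Sult1c2) with arrays scaled to the same trimmed mean, 1 with an offset of 1, and 0 to 2 when a line was left out (2 without EpH4). The other 3 comparisons gave 0 members in each setting run. Sult1c2, Gstm1, Gstm2 and Gsta4 kept their direction in every setting. Leaving out a line turned the mean change of Gstm7 (range -0.070 to 0.33, lowest without MCT), Gstt3 (-0.23 to 0.14, highest without mProx), Mgst2 (-0.042 to 0.81, lowest without mProx), Mgst3 (-0.081 to 0.42, lowest without MCT), Sult2b1 (-0.57 to 0.039, highest without NMuMG) and Sult5a1 (-0.10 to 0.42, lowest without NMuMG). Gstt3 was dim on every array of mProx, MCT and NMuMG, so its change there is not read as a response. Among all genes 13 passed in the 3 lines, against 216 with the values not normalized, 51 with the trimmed mean, 21 with the filter at the 60th percentile, 6 with the offset at the median, 27 without MCT and 63 without NMuMG, and 0 with no filter, no trend or no block. Over 4 lines the count of all genes was 0, against 238 not normalized and 11 with the trimmed mean. Without normalization the median change of all genes was -0.11 in mProx, -0.24 in MCT, 0.34 in NMuMG and -0.28 in EpH4. In the 3 lines without normalization, limma took 1 common spread for genes of a like level (25400 degrees of freedom, against 6.96). Adjusted p values and counts of that setting thus do not rest on each gene's own spread between lines. The causes of the differences between settings were not tested. Dim signals limit the size of changes, those of Sult1c2 in MCT and EpH4 included.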

Other observations

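The Ugt1a genes, which share their last exons, are read by probe sets that list 8 symbols each and so fell outside the choice of members. The 3 such probe sets were highest in NMuMG, at 11.10, 11.61 and 9.70 after stimulation, against 12.04, 12.60 and 11.06 at rest. In EpH4 the changes were -0.85, -0.80 and -0.76, in NMuMG -0.94, -0.99 and -1.36, in mProx 0.34, 0.60 and 0.63 and in MCT -0.54, -0.31 and 0.10. Which Ugt1a gene gives the signal cannot be read from these probe sets, and the values were not tested.

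A probe set that lists 3 alpha-class symbols, Gsta1 and Gsta2 among them, was at 6.89 in stimulated and 9.03 in resting MCT, a change of -2.14. Its changes were -0.97 in EpH4, -0.15 in mProx and -0.67 in NMuMG. A probe set that lists Ugt2a1 and Ugt2a2 was dim on all 8 arrays.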
